A study of Mus musculus with 6 samples.

Results

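The 8 genes described here encode transcription factors of the effector and memory differentiation of CD8+ T cells: Tbx21, Eomes, Prdm1, Id2, Zeb2, Irf4, Batf and Stat4. They were chosen by symbol from 35458 gene identifiers, by a rule that uses no measured value but with earlier results of these data known, and all 8 were found and passed the low-value filter (at least 1 FPKM in at least 3 of 6 libraries). RNA-seq was run on splenic CD8+ T cells of mice in 3 KO libraries (Cd4creGlut10fl/fl) and 3 control libraries (Cd4cre). Both groups carry Cd4cre, which expresses Cre recombinase in developing T cells, including the precursors of CD8+ cells, so the groups differ by label in the floxed alleles of Glut10, a hexose transporter encoded by Slc2a10. The series title mentions lymphoma, while the labels give no age, sex, deleted exon or tumour status and do not say that each library is a different mouse. The spread behind each p-value below is that of the 3 libraries per group and may be technical.

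A naive CD8+ T cell that meets antigen switches on IRF4 and BATF, which bind DNA together with AP-1 partners and support clonal expansion. IL-12 acts through STAT4, and the T-box factors T-bet (Tbx21) and Eomes then drive interferon-gamma and cytotoxic genes. Blimp-1 (Prdm1), ID2 and ZEB2 favour terminal effector cells, whereas Eomes is also associated with memory. None of these factors is restricted to CD8+ T cells: in the spleen T-bet, Eomes and ID2 also serve in NK cells, IRF4 and Blimp-1 in plasma cells, BATF in B cells and CD4+ T cells, and ZEB2 in myeloid cells.

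The libraries differed in depth and in the genes of other cell types. The totals implied by the values (total by which each library was divided) were 3420290, 14683400 and 3004540 fragments in KO 1, 2 and 3, and 11840600, 15020100 and 15036300 in control 1, 2 and 3. KO 1 and KO 3 had 18934 and 19268 genes at 1 FPKM or more, against 12200 in KO 2 and 12559 to 13713 in the controls. Slc2a10, the targeted gene, had 0 reads in each KO library and 4, 2 and 2 reads in control 1, 2 and 3, too few to check the labels. The summed level of 15 T cell core genes, such as the CD3 chains and Cd8a, was 1694, 2584 and 1649 FPKM in KO 1, 2 and 3, and 1729, 537 and 428 FPKM in control 1, 2 and 3. The summed level of 12 neutrophil genes was 266, 72.3 and 706 FPKM in KO 1, 2 and 3, and 439, 16772 and 29297 FPKM in control 1, 2 and 3. Control 2 and control 3 thus held much more neutrophil RNA and less T cell RNA per fragment than control 1, and control 1 correlated across genes more closely with KO 2 (Pearson r = 0.939) than with control 2 (0.857) or control 3 (0.843). KO 1 and KO 3 correlated with each other (0.931) more closely than with KO 2 (0.680 and 0.631), as a description over genes, which are not replicates. Differences are therefore also given with control 1 as the single control (control 2 and 3 left out) and with KO 2 as the single KO library (KO 1 and 3 left out), where the lone library is assumed to vary like the other group. In such bulk libraries fewer cells of a type and less RNA per cell cannot be told apart.

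The promoter sequences of 4 members are shown because Zeb2 and Irf4 were the members whose groups did not overlap, and Tbx21 and Eomes were those with the widest range between libraries. Each is the run of 250 bases before the transcription start in RefSeq, build GRCm38.p6, printed 5′ to 3′ on the strand of the gene: chr2:45117443-45117692 on the minus strand for Zeb2 (the first of 4 listed starts), chr13:30748983-30749232 on the plus strand for Irf4, chr11:97115332-97115581 on the minus strand for Tbx21 and chr9:118477939-118478188 on the plus strand for Eomes. Capitals mark matches on either strand to 5 motifs: the T-box half-site TCACACC, the AP-1 site TGANTCA, the IRF tandem repeat (GAAA, any 2 bases, GAAA), the STAT palindrome TTCNNNGAA and the E-box CANNTG, which ID2 partners (E proteins) and ZEB factors bind.
Zeb2: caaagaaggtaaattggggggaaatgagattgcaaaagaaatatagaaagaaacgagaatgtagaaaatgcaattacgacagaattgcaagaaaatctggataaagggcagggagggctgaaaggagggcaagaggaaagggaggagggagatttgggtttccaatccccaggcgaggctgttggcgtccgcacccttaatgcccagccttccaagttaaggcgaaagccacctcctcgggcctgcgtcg
Irf4: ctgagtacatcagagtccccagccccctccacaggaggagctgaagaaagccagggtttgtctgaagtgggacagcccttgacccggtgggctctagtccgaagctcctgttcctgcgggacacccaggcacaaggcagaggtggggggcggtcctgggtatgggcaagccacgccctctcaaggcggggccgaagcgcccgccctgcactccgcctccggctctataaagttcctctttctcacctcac
Tbx21: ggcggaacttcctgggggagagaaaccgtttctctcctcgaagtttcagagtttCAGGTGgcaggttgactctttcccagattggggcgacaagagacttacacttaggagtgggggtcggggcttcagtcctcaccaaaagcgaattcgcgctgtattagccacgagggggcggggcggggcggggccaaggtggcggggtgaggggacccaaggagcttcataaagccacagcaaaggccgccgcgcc
Eomes: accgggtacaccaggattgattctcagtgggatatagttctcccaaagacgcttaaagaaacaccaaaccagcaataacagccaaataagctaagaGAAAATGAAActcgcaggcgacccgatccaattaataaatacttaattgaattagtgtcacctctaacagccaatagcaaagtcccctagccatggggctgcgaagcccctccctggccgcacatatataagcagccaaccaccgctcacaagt
The Eomes window held 1 IRF tandem repeat, a motif found in 2.98% of 32841 windows of this length. The Tbx21 window held 1 E-box, as did 66.2% of windows, and 3 GC boxes (GGGCGG, each sharing 1 base with the next), which 32.7% of windows hold. The Irf4 window held 2 GC boxes and no match to the 5 motifs, and the printed Zeb2 window held no match to any of these letters. Of the other 3 listed Zeb2 starts, which lie downstream and are not printed, starts 2 and 3, whose windows overlap, held the same STAT palindrome and GC box, and start 4 had 2 AP-1 sites and a GC box. Across the other 4 members, 1 of the 2 listed Stat4 starts had an IRF tandem repeat, and the Prdm1 window had an AP-1 site, which occurs in 6.75% of windows. T-box half-sites, in 3.33% of windows, and STAT palindromes, in 7.02%, were not among the letters of the 4 printed windows. A match is a run of letters and no evidence of binding.

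Zeb2 and Irf4 had lower values in every KO library than in every control library, and the other 6 members overlapped between the groups. No member passed the test over all genes (limma on log2(FPKM + 1), Benjamini-Hochberg adjusted p under 0.05), in a comparison in which 0% of 13956 genes passed. Groups did not overlap, with KO lower, for 9.44% of the genes tested, against 2 of the 8 members. With KO higher the share was 6.70%, against 0 members, and in either direction it was 16.1%. At an unadjusted p under 0.05 there were 11.8% of all genes and 1 member, Zeb2. Estimates were higher in KO for 6 members, where 56.9% of all genes had higher estimates, and lower for 2 members, against 43.1%. Without control 1, 2.60% of genes passed the adjusted threshold, and without KO 2, 13.0% did, with 0 members in either case. Protein-coding genes alone had 11.4% with KO lower and no overlap. The shares called across all genes are the background for these counts, and with 8 members they read as no result about the members as a set.

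**Figure D1:**
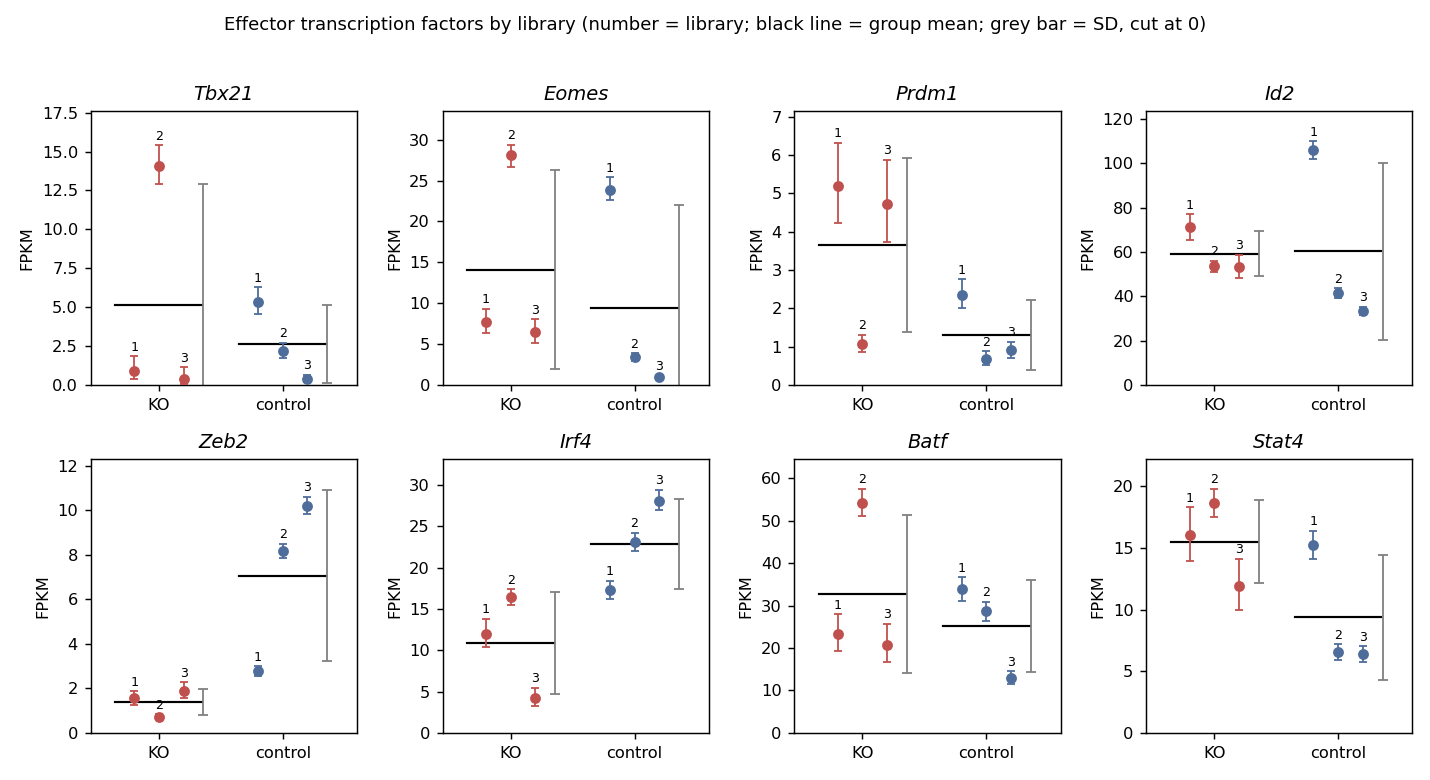
FPKM of the 8 genes in each library, with KO left of control in each panel; points are libraries (number beside the point), their bars are 95% Poisson counting intervals, the black line is the group mean and the grey bar the SD over 3 libraries. For Zeb2 and Irf4 all KO points lie below all control points; for Tbx21 and Eomes KO 2 and control 1 lie highest within their groups.

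Zeb2 (ENSMUSG00000026872), a zinc-finger repressor that acts with T-bet in terminal effector cells, measured 1.55, 0.727 and 1.89 FPKM in KO 1, 2 and 3, and 2.78, 8.17 and 10.2 FPKM in control 1, 2 and 3. These values rest on 106, 213 and 113 reads in KO 1, 2 and 3, and on 656, 2446 and 3055 reads in control 1, 2 and 3. The KO libraries were all below the lowest control, and control 2 and 3 were far above control 1. The mean was 1.39 ± 0.597 FPKM in KO cells and 7.04 ± 3.83 FPKM in control cells (SD, n = 3 each). The log2 difference, KO minus control, was -1.64 (SE 0.49, 95% interval -2.82 to -0.46), and the limma adjusted p was 0.417. Against control 1 alone the difference was -0.69, and KO 2 alone against the controls gave -2.08.

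Neutrophil genes moved with Zeb2. All 11 tested neutrophil genes of 12 had lower estimates in KO, 3 of them with every KO library below every control (Cxcr2, Mmp8 and Mmp9), as for 9.44% of all genes, and none of the 12 was at 0 in any library. The part of neutrophil RNA in the Zeb2 difference was not tested. KO 3 had a higher neutrophil sum than control 1 (706 against 439 FPKM). S100a8 and S100a9 made up most of both sums, at 170 and 353 FPKM in KO 3 and 109 and 164 FPKM in control 1. Camp, Ngp, Ltf, Retnlg, Elane and Mpo were also higher in KO 3 than in control 1, whereas Mmp8, Mmp9, Cxcr2 and Ly6g were lower. Zeb2 was lower too, with 95% counting intervals of 1.55 to 2.27 FPKM in KO 3 and 2.57 to 3.0 FPKM in control 1. The summed level of 12 macrophage genes was 968, 208 and 1857 FPKM in KO 1, 2 and 3, and 1316, 2901 and 1716 FPKM in control 1, 2 and 3. Hmox1 made up most of that sum, with 705, 134 and 1304 FPKM in KO 1, 2 and 3, and 958, 2514 and 1457 FPKM in control 1, 2 and 3. The mean log2(FPKM + 1) over the macrophage list was 4.30, 1.72 and 5.28 in KO 1, 2 and 3, and 4.48, 4.53 and 3.73 in control 1, 2 and 3, so it was lowest in KO 2, as Zeb2 was, but highest in KO 3 and below control 1 and 2 in control 3, where Zeb2 was highest. None of these genes was at 0 in any library, and their part in the Zeb2 difference was not tested. Reads over 3.27% of the Zeb2 exon length could also come from the antisense gene Zeb2os, which was at 0.48 FPKM or less in each library.

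Irf4 (ENSMUSG00000021356), which scales the expansion of CD8+ T cells with the strength of the T cell receptor signal, measured 12, 16.4 and 4.28 FPKM in KO 1, 2 and 3, and 17.3, 23.1 and 28.1 FPKM in control 1, 2 and 3. KO 3 was lowest of all, on 63 reads, and KO 2 and control 1 lay next to each other, with 95% counting intervals of 15.5 to 17.4 and 16.2 to 18.4 FPKM that overlap. The separation of the groups therefore rests on a gap within counting error. The mean was 10.9 ± 6.15 FPKM in KO cells and 22.8 ± 5.45 FPKM in control cells, a log2 difference of -1.14 (SE 0.48, 95% interval -2.29 to 0.01; limma adjusted p = 0.417). It was -0.78 with control 1 as the single control and -0.42 with KO 2 as the single KO library.

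Irf4 stayed high in control 2 and 3 although T cell core genes were low there. Set against T cell core genes (their mean subtracted, on the log2(FPKM + 1) scale) it stood at -2.72, -2.86 and -3.84 in KO 1, 2 and 3, and at -2.31, -0.28 and 0.26 in control 1, 2 and 3. The summed level of 6 plasma cell genes, the cells in which IRF4 is most prominent outside T cells, was 49.6, 212 and 48.2 FPKM in KO 1, 2 and 3, and 305, 37.9 and 60.6 FPKM in control 1, 2 and 3. It was thus highest in control 1 and KO 2 and low in control 2 and 3, where Irf4 was highest. Jchain made up most of the sum in KO 2 and control 1, with 154 and 225 FPKM. Sdc1, Mzb1, Derl3 and Txndc5 were also highest in KO 2 and control 1 within their groups. Among the KO libraries Mzb1 hardly differed (14.2, 16.3 and 15.1 FPKM in KO 1, 2 and 3). Tnfrsf17 was highest in KO 1 and control 1 within its groups and at 0 in KO 3 and control 2. The summed level of 10 B cell genes was 86.2, 53.7 and 64.0 FPKM in KO 1, 2 and 3, above the 49.6, 16.4 and 26.6 FPKM in control 1, 2 and 3, with Fcer2a at 0 in control 2. The summed level of 4 genes of CD4+ T cells was 9.42, 8.09 and 4.83 FPKM in KO 1, 2 and 3, and 15.7, 26.7 and 31.3 FPKM in control 1, 2 and 3. Those 4 genes were the marker list whose sums stood apart in the same direction as Irf4. Of them, 3 of 4 (Cd4, Cd40lg and Zbtb7b) had every KO library below every control, as did 9.44% of all genes. Cd40lg was at 0 in KO 1. Foxp3 overlapped, with means of 2.01 FPKM in KO cells and 1.66 FPKM in control cells. Zbtb7b made up most of the sum in each control, with 8.47, 17.0 and 25.9 FPKM in control 1, 2 and 3. Cd4 itself measured 3.41, 6.34 and 3.53 FPKM there and did not have the order of Irf4. The neutrophil sums, 439, 16772 and 29297 FPKM in control 1, 2 and 3, had that order, but KO 3, at 706 FPKM, was above control 1. The parts of plasma cell, B cell, CD4+ T cell and neutrophil RNA in the Irf4 difference were not tested.

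**Figure D2:**
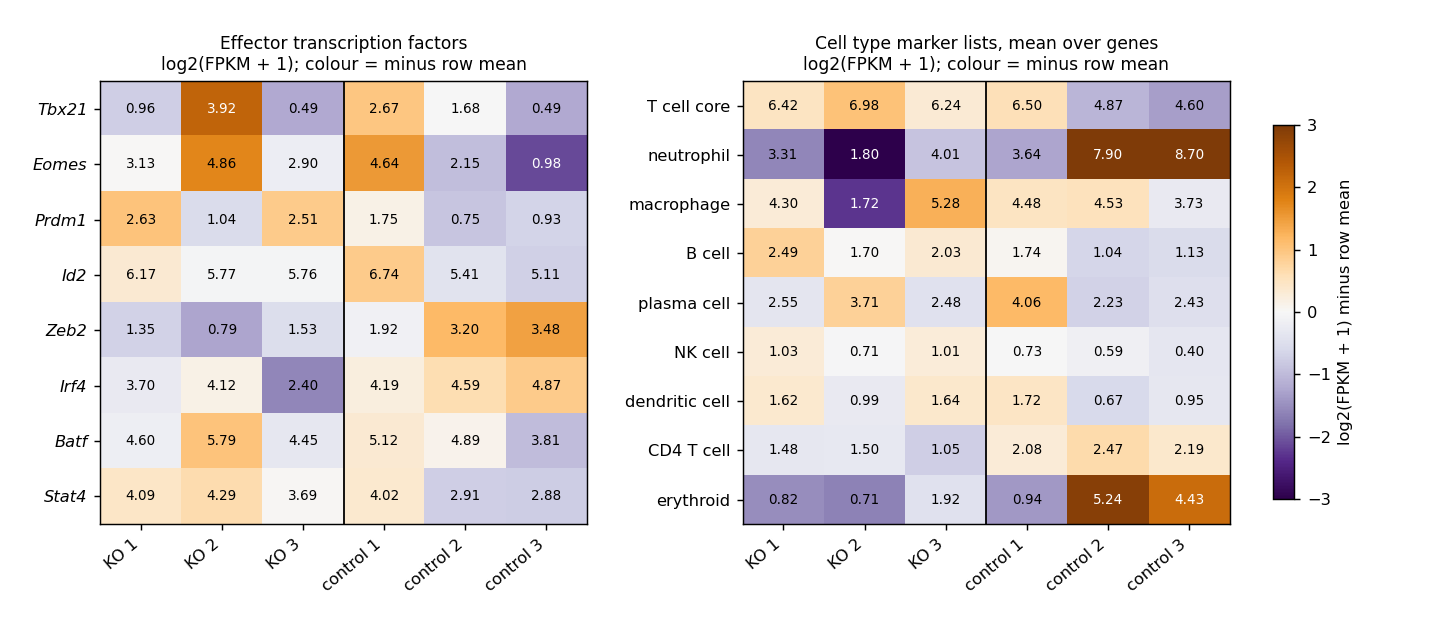
Level in each library, KO left of control, as log2(FPKM + 1) printed in each cell, for the 8 genes (left) and for the mean over the genes of each of 9 marker lists (right); colour is the difference from the mean of the row. Zeb2 and Irf4 are highest in control 2 and 3, where the neutrophil list reads 7.90 and 8.70 and the T cell core list 4.87 and 4.60.

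Tbx21 (ENSMUSG00000001444), which encodes T-bet, the T-box factor that commits cells to interferon-gamma production and killing, measured 0.940, 14.1 and 0.401 FPKM in KO 1, 2 and 3, and 5.36, 2.19 and 0.401 FPKM in control 1, 2 and 3. It was high in KO 2 alone among the KO libraries, where it was 35.2 times the lowest value of its group, with control 1 and 2 between, and control 3 level with KO 3. KO 1 and KO 3 held only 8 and 3 Tbx21 reads, so that their levels had 95% counting intervals of 0.406 to 1.85 and 0.0828 to 1.17 FPKM, while KO 2 held 516 reads. The mean was 5.16 ± 7.77 FPKM in KO cells and 2.65 ± 2.51 FPKM in control cells, a log2 difference of 0.18 (SE 1.02, 95% interval -2.28 to 2.63; limma adjusted p = 0.944). The difference was 2.31 without KO 1 and 3 and -0.88 without control 2 and 3, so its direction depended on which libraries were compared.

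Eomes (ENSMUSG00000032446), the T-box relative of T-bet that is also tied to memory cells, measured 7.74, 28.1 and 6.49 FPKM in KO 1, 2 and 3, and 23.9, 3.45 and 0.976 FPKM in control 1, 2 and 3. KO 2 and control 1 were again high, with 1712 and 1178 reads, and the lowest library was control 3, with 61 reads. The mean was 14.1 ± 12.1 FPKM in KO cells and 9.46 ± 12.6 FPKM in control cells, and the log2 difference was 1.04 (SE 1.01, 95% interval -1.39 to 3.47; limma adjusted p = 0.610). It turned to -1.01 without control 2 and 3 and was 2.27 without KO 1 and 3. Eomes exceeded Tbx21 in each of the 6 libraries, on a scale that allows for gene length, although the 95% counting intervals in control 3, 0.747 to 1.25 FPKM for Eomes and 0.224 to 0.661 FPKM for Tbx21, came close. Reads over 2.84% of the Eomes exon length could also come from the antisense gene Gm33460, which measured 27.3, 3.3 and 39.1 FPKM in KO 1, 2 and 3, and 4.88, 1.86 and 0.744 FPKM in control 1, 2 and 3.

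T cell core genes were also highest in KO 2 and second highest, by their sum, in control 1. Relative to the mean of these genes on the log2(FPKM + 1) scale, Eomes stood at -3.30, -2.12 and -3.34 in KO 1, 2 and 3, and at -1.86, -2.72 and -3.62 in control 1, 2 and 3. On that scale KO 2 and control 1 still held the highest Eomes values of their groups. Tbx21 stood at -5.47, -3.07 and -5.76 in KO 1, 2 and 3, and at -3.83, -3.20 and -4.12 in control 1, 2 and 3, so that control 2 rather than control 1 was the highest control. NK cell genes, a list of 7 of which 2 passed the filter, summed to 12.1, 5.69 and 9.39 FPKM in KO 1, 2 and 3, and 5.21, 3.89 and 2.49 FPKM in control 1, 2 and 3. The NK cell sum was lowest among the KO libraries in KO 2, where Tbx21 and Eomes were highest, but the genes of the list differed from each other in this. Ncr1, the defining NK receptor, measured 7.40, 0.752 and 4.75 FPKM in KO 1, 2 and 3, and 1.04, 0.562 and 0.605 FPKM in control 1, 2 and 3. Klrb1c, which encodes NK1.1, measured 1.78, 2.92 and 0.899 FPKM in KO 1, 2 and 3, and 0.913, 0.157 and 0.157 FPKM in control 1, 2 and 3, highest within each group in KO 2 and control 1, as Eomes was. Klrb1f (0, 1.11 and 0.493 FPKM in KO 1, 2 and 3) and Klra8 (0.248, 0.289 and 0 FPKM) were also highest among the KO libraries in KO 2, whereas Klra4 was at 0 there, and Klra8 was at 0 in control 3 as well. The part of NK cell RNA in the Tbx21 and Eomes values was not tested.

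Prdm1 (ENSMUSG00000038151), which encodes Blimp-1, a transcriptional repressor that acts in terminal effector and plasma cells, measured 5.19, 1.06 and 4.71 FPKM in KO 1, 2 and 3, and 2.36, 0.680 and 0.906 FPKM in control 1, 2 and 3. KO 1 and KO 3 were above every control and KO 2 lay among them. The mean was 3.65 ± 2.26 FPKM in KO cells and 1.32 ± 0.913 FPKM in control cells, a log2 difference of 0.92 (SE 0.53, 95% interval -0.37 to 2.21; limma adjusted p = 0.435). It was 0.31 when control 2 and 3 were left out and -0.10 when KO 1 and 3 were. The KO libraries with high Prdm1 were those with the lowest totals and the most genes at 1 FPKM or more. Their plasma cell sums, 49.6 and 48.2 FPKM, were below the 212 FPKM of KO 2, of which Jchain was 154 FPKM. The parts of the unequal depth and of plasma cell RNA in the Prdm1 values were not tested.

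Id2 (ENSMUSG00000020644), which encodes an inhibitor of E proteins that is needed for effector survival, was the most abundant member in 5 of 6 libraries. It measured 71.1, 53.6 and 53.2 FPKM in KO 1, 2 and 3, and 106, 41.5 and 33.5 FPKM in control 1, 2 and 3, with the KO libraries inside the range of the controls. The mean was 59.3 ± 10.2 FPKM in KO cells and 60.4 ± 39.8 FPKM in control cells, and the log2 difference was 0.15 (SE 0.44, 95% interval -0.92 to 1.22; limma adjusted p = 0.884). Against control 1 alone it was -0.84, and KO 2 alone against the controls gave 0.02.

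Batf (ENSMUSG00000034266), the AP-1 family partner of IRF4, measured 23.3, 54.2 and 20.8 FPKM in KO 1, 2 and 3, and 33.8, 28.6 and 13.0 FPKM in control 1, 2 and 3. KO 2 was the highest and control 3 the lowest library. In KO 2, Batf and Id2 did not differ beyond counting error, with 95% intervals of 51.1 to 57.5 and 51.2 to 56.1 FPKM. The mean of Batf was 32.8 ± 18.6 FPKM in KO cells and 25.1 ± 10.8 FPKM in control cells, a log2 difference of 0.34 (SE 0.49, 95% interval -0.85 to 1.53; limma adjusted p = 0.740). Against control 1 alone it was -0.17, and KO 2 alone against the controls gave 1.18. Batf and its partner Irf4 had the same order among the KO libraries, KO 2 highest and KO 3 lowest, and the opposite order among the controls.

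Stat4 (ENSMUSG00000062939), the signal transducer of IL-12, had a ratio of highest to lowest KO library of 1.56, which was the smallest of the 8 members after Id2 at 1.34. It measured 16, 18.6 and 11.9 FPKM in KO 1, 2 and 3, and 15.2, 6.52 and 6.36 FPKM in control 1, 2 and 3. Control 1 lay within the range of the KO libraries, and control 2 and 3 were lower. The mean was 15.5 ± 3.36 FPKM in KO cells and 9.37 ± 5.07 FPKM in control cells, a log2 difference of 0.76 (SE 0.38, 95% interval -0.17 to 1.68; limma adjusted p = 0.419). Against control 1 alone it was 0.01, and KO 2 alone against the controls gave 1.02. Gm28177, an annotated transcript on the same strand that shares 26.7% of the Stat4 exon length, measured 0.0942 FPKM or less in every library, and reads in the shared bases cannot be assigned from these values.

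The order of the members by mean level, Id2 and Batf at the top and Prdm1, Tbx21 and Zeb2 towards the bottom, was not the same in all libraries. Zeb2 took place 4 of 8 in control 2 and 3, above Stat4, Eomes and Tbx21, and the last place in KO 2. In control 3, Irf4 stood above Batf, with 28.1 against 13.0 FPKM. Tbx21 was last in KO 1, KO 3 and control 3 and took place 6 in KO 2 and control 1. Among the members, the pair with the most similar pattern was Id2 and Stat4, whose log2 values, each minus its own mean, differed by 0.30 on average over the 6 libraries. Batf and Stat4 followed at 0.40, Tbx21 and Eomes were at 0.77, and Eomes and Zeb2, at 1.89, were the least alike.

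**Figure D3:**
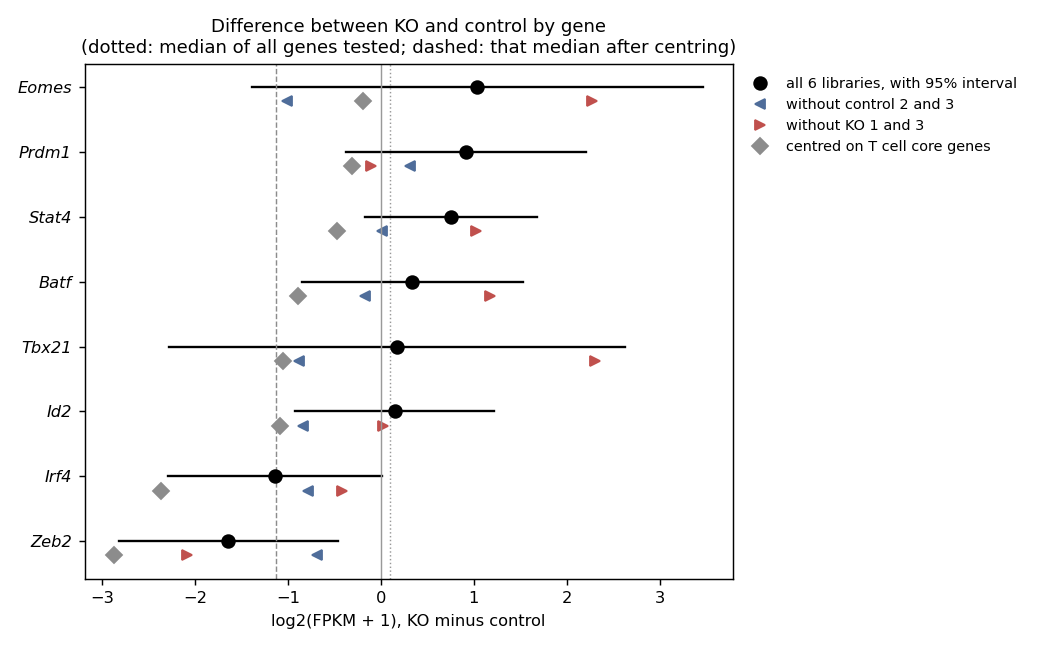
Difference in log2(FPKM + 1), KO minus control, for the 8 genes: black points and lines are the estimate and its 95% interval from all 6 libraries, triangles are estimates without control 2 and 3 (left-pointing) and without KO 1 and 3 (right-pointing), and diamonds are estimates after each library was centred on the T cell core genes. Zeb2 and Irf4 lie below 0 in every setting drawn. Eomes, Tbx21, Prdm1, Id2 and Batf have their left-pointing and right-pointing triangles on opposite sides of 0.

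Each library was also centred on its T cell core genes, which moved the median log2 difference over the 13956 genes to -1.13, against 0.10 before. Zeb2, at -2.87, and Irf4, at -2.37, lay below that shifted median. Tbx21, at -1.05, and Id2, at -1.08, lay close to it, and Batf (-0.89), Stat4 (-0.47), Prdm1 (-0.31) and Eomes (-0.19) lay above it. Quantile normalization gave a median of -0.29 over all genes. Zeb2 was then at -2.10, Irf4 at -1.52 and Tbx21 at -0.32, and the other 5 members lay between 0.03 (Id2) and 0.48 (Eomes).

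For each member the protein-coding genes of similar pattern were also looked up, among 7494 genes or, for members in that set, 7493 others with a mean of at least 5 FPKM. Likeness is the mean absolute difference of log2(FPKM + 1) values, each minus its own mean, over the 6 libraries. The closest were Mindy1 (0.07) and Nceh1 (0.11) for Zeb2, Lrrc41 (0.11) and Bhlhe40 (0.14) for Irf4, Gbp2 and Tigit (0.27 each) for Tbx21, and Kbtbd11 (0.27) and Ppp3cc (0.28) for Eomes. Tigit, an inhibitory receptor, measured 10.3, 37.1 and 3.46 FPKM in KO 1, 2 and 3, and 22.9, 11.1 and 3.66 FPKM in control 1, 2 and 3. For Prdm1 they were Wdr45 and Cd40 (0.13 each), for Id2 Unc45a and 1500011B03Rik (0.11 each), for Batf Mettl26 (0.11) and Npm1 (0.13), and for Stat4 Aff3 (0.02) and Ddb2 (0.06). With 6 libraries, close likeness is common, and it is given as a description.

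Transcription factors that work with the members or oppose them were described from a list of 15, of which 14 were tested. Of these 11 had higher and 3 lower estimates in KO and 0 passed, with a median log2 difference of 0.63 beside 0.10 for all genes. The median was -0.22 without control 2 and 3, -0.60 after centring on T cell genes and 0.18 after quantile normalization. Bhlhe40, a repressor induced by T cell activation, measured 20.7, 25.2 and 9.34 FPKM in KO 1, 2 and 3, and 32.9, 42.9 and 41.1 FPKM in control 1, 2 and 3. All KO libraries were below all controls, as for Irf4 and for 9.44% of all genes, and the log2 difference was -1.14 (limma adjusted p = 0.417). Foxo1, which maintains the naive and memory state, measured 16.9, 13.6 and 13.9 FPKM in KO 1, 2 and 3, and 12.7, 3.31 and 3.72 FPKM in control 1, 2 and 3. Its groups were apart in the other direction, as for 6.70% of all genes. The log2 difference of Foxo1 was 1.27 (limma adjusted p = 0.417), and 0.20 without control 2 and 3. Of the 14 genes tested, 1 was apart with KO lower and 1 with KO higher. Lef1 and Klf2, factors of naive cells, had log2 differences of 2.02 and 2.07 (limma adjusted p = 0.417 each), and 0.23 and -0.18 without control 2 and 3.

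The partners of BATF and IRF4 were listed as 10 AP-1, BATF and IRF-binding factors. Of 8 tested, 4 had higher and 4 lower estimates, 0 passed, and 3 had every KO library below every control, as did 9.44% of all genes: Fosl2, Jun and Spi1. The median log2 difference was -0.25, or -0.57 after quantile normalization and -1.48 after centring on T cell genes. Jun, an AP-1 subunit that pairs with BATF, measured 18.2, 14.2 and 17.3 FPKM in KO 1, 2 and 3, and 24.8, 23.5 and 31.7 FPKM in control 1, 2 and 3, with groups apart and a log2 difference of -0.65 (SE 0.22, limma adjusted p = 0.417). Against control 1 alone it was -0.56, and KO 2 alone against the controls gave -0.85. The other JUN genes of the list, Junb and Jund, are named after their values were seen. Junb was more abundant, at 96.6, 142 and 73.3 FPKM in KO 1, 2 and 3, and 120, 104 and 59.1 FPKM in control 1, 2 and 3. Junb and Jund had overlapping groups and log2 differences of 0.15 and 0.33. Fosl2, another AP-1 subunit, averaged 1.78 ± 0.444 FPKM in KO cells and 9.60 ± 5.84 FPKM in control cells, with a log2 difference of -1.73, and -0.53 without control 2 and 3. Spi1, which encodes PU.1, the partner of IRF4 in B cells and a master regulator of myeloid cells, averaged 29.8 ± 18.5 FPKM in KO cells and 84.0 ± 31.6 FPKM in control cells. KO 3 and control 1 lay next to each other, at 48.3 and 49.0 FPKM. The log2 difference of Spi1 was -1.60 (limma adjusted p = 0.417), and -0.91 without control 2 and 3. Batf3, the paralogue of Batf that dendritic cells need, measured 11.2, 4.73 and 14.0 FPKM in KO 1, 2 and 3, and 7.67, 0.584 and 1.29 FPKM in control 1, 2 and 3. Dendritic cell genes, a list of 6 with none at 0 in any library, summed to 18.9, 8.05 and 16.8 FPKM in KO 1, 2 and 3, and 18.4, 4.01 and 7.43 FPKM in control 1, 2 and 3. Their part in the Batf3 values was not tested.

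Upstream of the members, 18 cytokine receptor chains, Janus kinases and STATs were all tested, with 11 higher and 7 lower estimates, 0 passing, and a median log2 difference of 0.11, or -1.12 after centring on T cell genes and -0.19 after quantile normalization. The IL-12 receptor chain Il12rb1, chosen after its values were seen, had every KO library above every control, as did 6.70% of all genes. Its levels were low, at 2.07, 2.09 and 1.14 FPKM in KO 1, 2 and 3, and 1.09, 0.941 and 1.02 FPKM in control 1, 2 and 3. KO 3 and control 1 thus lay next to each other, and the log2 difference was 0.43 (limma adjusted p = 0.465). Il18rap, the accessory chain of the IL-18 receptor, measured 1.13, 3.0 and 1.63 FPKM in KO 1, 2 and 3, and 6.15, 7.79 and 15.2 FPKM in control 1, 2 and 3. It had the smallest p of the list, with a log2 difference of -1.84 (SE 0.43, limma adjusted p = 0.417), -1.35 against control 1 alone and -1.33 for KO 2 alone. Il2rg, the shared gamma chain of cytokine receptors, and Jak1, a kinase bound to such receptors, had overlapping groups and log2 differences of 0.90 and 0.55, which were -0.07 and -0.09 without control 2 and 3.

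Downstream, 13 of 14 effector genes known as targets of T-bet or Eomes were tested, with 8 higher and 5 lower estimates, 0 passing, and a median log2 difference of 0.13. That median was 0.68 without KO 1 and 3, -0.46 without control 2 and 3, -0.23 after quantile normalization and -1.10 after centring on T cell genes. Klrd1, which encodes the CD94 receptor chain, measured 119, 124 and 124 FPKM in KO 1, 2 and 3, and 64.6, 23.4 and 5.56 FPKM in control 1, 2 and 3. Its groups did not overlap, with KO higher, as for 6.70% of all genes. The KO libraries were nearly equal for Klrd1, while Tbx21 and Eomes differed widely among them. A relation of Klrd1 to Tbx21 or Eomes was not tested. The log2 difference of Klrd1 was 2.49 (SE 0.78, limma adjusted p = 0.417), and 0.91 without control 2 and 3. Gzmb, the main granzyme of killing, measured 6.80, 112 and 4.22 FPKM in KO 1, 2 and 3, and 53.2, 81.0 and 26.7 FPKM in control 1, 2 and 3, high in KO 2 as were Tbx21 and Eomes. Ifng, the interferon-gamma gene and a direct target of T-bet, was high in the other KO libraries, with 11.7, 0.473 and 15.4 FPKM in KO 1, 2 and 3, and 1.70, 0.720 and 0.770 FPKM in control 1, 2 and 3. KO 1 and KO 3 were also the libraries with the lowest totals and the most genes at 1 FPKM or more. The part of the unequal depth in the Ifng values was not tested. Klrk1, the NKG2D receptor, averaged 2.44 ± 0.847 FPKM in KO cells and 1.46 ± 0.495 FPKM in control cells.

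**Figure D4:**
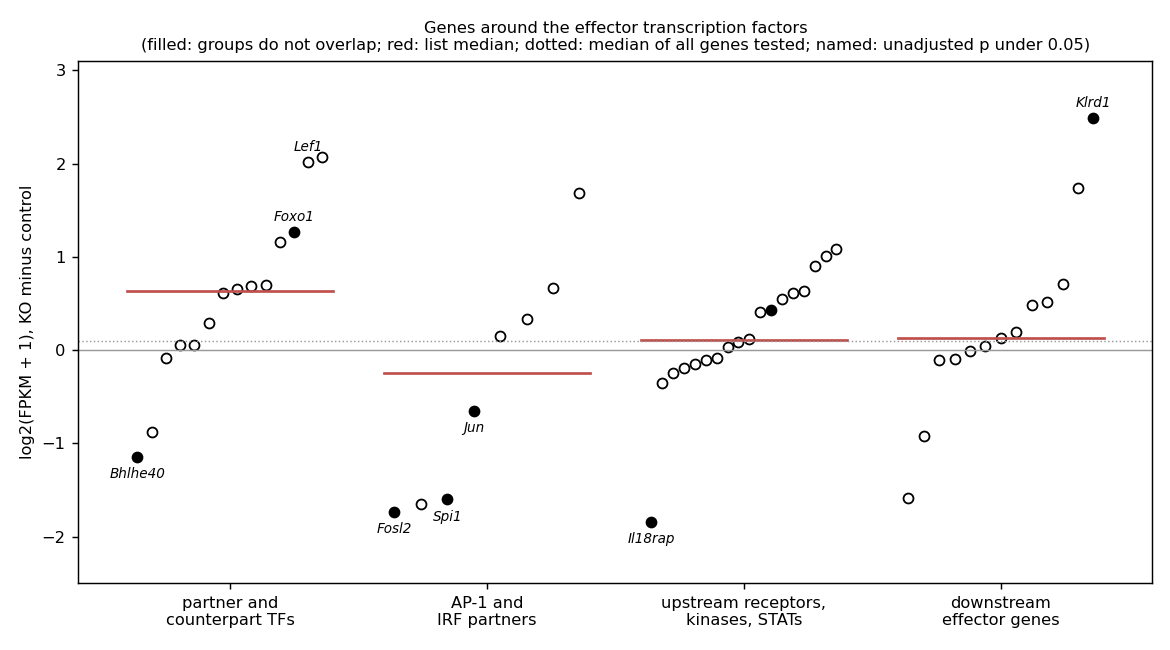
Difference in log2(FPKM + 1), KO minus control, for each tested gene (point) of the 4 lists around the members, with list medians in red; filled points have groups that do not overlap and named genes have an unadjusted limma p under 0.05. The medians are 0.63, -0.25, 0.11 and 0.13 from left to right, beside 0.10 for all genes, and 0 genes passed the adjusted threshold.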

How the data were processed

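CD8+ T cells of mouse spleen were profiled in 3 KO and 3 control libraries, grouped by title. Per the labels' protocols, RNA was taken up in Trizol and an NEBNext Ultra kit was used for the libraries. The submitters' processing notes name HISAT2 2, Bowtie2 2.2.3, HTSeq 0.6.0 and mm8, with no role or order. Annotation and strand setting are not given in the sources used here, and since mm8 is not the build of the matching exon lengths, no coordinate comes from the deposited values. The authors deposited FPKM per gene and library, a unit read from the values. Symbols and exon lengths came from GENCODE M21 (35358 of 35458 identifiers matched), and promoters from RefSeq.

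Multiplied by exon length, 92.1% to 93.4% of values under 200 reads lay within 0.02 of a whole read, which gives the implied totals and the reads of each gene. For a gene of 1 kb a floor of 3 reads was 0.200 to 0.998 FPKM. Exact Poisson intervals (95%) cover counting error only.

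The 13956 genes that reached 1 FPKM in 3 or more libraries were tested as log2(FPKM + 1), which understates changes of low genes, with limma 3.58.1 (R 4.3.3), an intensity trend and group as the only term. The procedure was tested on simulated reads in which the libraries of a group shared the same rate for each gene. That setting lacks the differences in cell content between these libraries, so it does not measure performance on these data. The 8 members, 4 pathway lists (57 genes) and 9 marker lists (78 genes) were chosen with earlier results of these data known. Named were all members, Slc2a10, the 4 genes of smallest p in each pathway list, 2 genes of similar pattern per member, and marker genes as list summaries with defining genes; 1 gene named by this rule is not reported here. Alternatives were a pseudocount of 0.1, no filter, quantile normalization, a replicate block, left-out libraries, protein-coding genes only, limma-voom on implied reads, a log2 threshold of 1 and centring on T cell core genes. Python 3.11.15, numpy 2.4.6, pandas 2.3.3, scipy 1.17.1 and matplotlib 3.10.9 were used.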

Additional observations from a re-analysis of the deposited data

How the results depend on the processing

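No member passed under any of the 15 alternatives, and Zeb2 and Irf4 kept lower estimates in all of them. Their limma adjusted p ranged from 0.0564 to 0.997 for Zeb2 and from 0.0864 to 0.997 for Irf4. After centring on T cell core genes, which shifts all genes, the log2 differences of Tbx21, Eomes, Prdm1, Id2, Batf and Stat4 were -1.05, -0.19, -0.31, -1.08, -0.89 and -0.47, and the list medians were -0.60 (partner factors), -1.48 (AP-1 and IRF partners), -1.12 (upstream genes) and -1.10 (effector genes). After quantile normalization Tbx21 was at -0.32 and the AP-1 and IRF list at -0.57. Without control 2 and 3, which leaves 1 control assumed to vary like the KO libraries, Tbx21, Eomes, Id2 and Batf were at -0.88, -1.01, -0.84 and -0.17, and the partner, upstream and effector lists at -0.22, -0.43 and -0.46. Without KO 1 and 3, Prdm1 was at -0.10 and the effector list at 0.68. With 1 library left out at a time, Tbx21 ranged from -0.89 (without KO 2; -0.39 without control 3) to 0.83, Id2 from -0.18 (without control 3; -0.02 without control 2) to 0.64 and Batf from -0.08 (without KO 2; -0.06 without control 3) to 0.60, Eomes from 0.23 to 2.06, Prdm1 from 0.64 to 1.43, Zeb2 from -2.12 to -1.33 and Irf4 from -1.50 to -0.64. The number of genes passing ranged from 0 to 1821: 363 passed without control 1 (2.60% of genes) and 1821 without KO 2 (13.0%), with 0 of the 8 members among them in either case. On implied reads limma-voom gave 1.75 for Tbx21 and 1.82 for Eomes, against 0.18 and 1.04, and passed 0 of 16254 genes; 1352 had an unadjusted p under 0.05, beside 1646 by limma on log2(FPKM + 1). The causes of the changes under these alternatives were not tested. The replicate numbers were not taken to pair the libraries. Same-numbered libraries had correlations of their deviations of 0.112, 0.0202 and 0.0175, and differently numbered ones ranged from -0.207 to 0.139. With 3 libraries per group these values cannot decide whether libraries were paired. With the number as a replicate block 0 genes passed, and Zeb2 and Irf4 had limma adjusted p of 0.390 and 0.393. Depth limits Tbx21 most, with 8 and 3 reads in KO 1 and KO 3.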

Other observations

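The gene families of the members were also described by name pattern, a choice made after the values were seen. All 9 interferon regulatory factors were tested, and 8 had higher and 1 lower estimates in KO, whereas 4 were higher after quantile normalization and 0 after centring on T cell core genes. Irf4 was the one with the lower estimate and the one whose groups did not overlap. Irf1, an interferon-induced activator, measured 45.5, 115 and 46.0 FPKM in KO 1, 2 and 3, and 62.9, 23.9 and 19.0 FPKM in control 1, 2 and 3. Irf8, the closest relative of Irf4, measured 14.2, 20.7 and 14.3 FPKM in KO 1, 2 and 3, and 15.4, 6.19 and 9.70 FPKM in control 1, 2 and 3. Both were lower in control 2 and 3 than in control 1, the reverse of Irf4.

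Of 16 T-box genes 4 passed the filter: Tbx21, Eomes, Mga and Tbx6. Tbx6, known from the embryonic mesoderm, measured 22.9, 7.74 and 25.1 FPKM in KO 1, 2 and 3, and 13.9, 2.69 and 4.87 FPKM in control 1, 2 and 3, above Tbx21 in all libraries but KO 2. Tbx6 was thus highest in KO 1 and KO 3. The same held for Tbx19, Tbx20, Tbx15 and Tbx22, which did not pass the filter. Tbx19 measured 8.61, 0.171 and 11.2 FPKM in KO 1, 2 and 3, and 0.313 FPKM or less in each control. Tbx1 and Tbx10, by contrast, were at 0 in KO 1 and KO 3. The part of the unequal depth in the T-box values was not tested. Stat6, which signals for IL-4, measured 56.2, 51.7 and 28.4 FPKM in KO 1, 2 and 3, and 64.8, 56.1 and 84.8 FPKM in control 1, 2 and 3. Of the ID genes, Id1 measured 3.28, 1.47 and 12.3 FPKM in KO 1, 2 and 3, and 4.0, 18.2 and 15.3 FPKM in control 1, 2 and 3, and Id3 measured 24.2, 41.2 and 22.5 FPKM in KO 1, 2 and 3, and 24.9, 20.7 and 10.5 FPKM in control 1, 2 and 3. No gene of the families named here passed limma at an adjusted p of 0.05.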
